A study of Homo sapiens with 6 samples.

Results

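Heat shock proteins and their J-domain co-chaperones were examined in IGROV-1, a cell line from a human ovarian carcinoma, on 6 single-colour Illumina bead arrays. The members were chosen by gene symbol: those that begin with HSPA, HSPB, HSPD, HSPE, HSPH, HSP90, DNAJA, DNAJB or DNAJC, together with CRYAB and HSF1, and without HSPBP1 and HSPBAP1. This rule found 112 of the 48803 probes and 75 of the 18852 genes named on the array, and 63 of these genes were measured among the 11040 genes tested. The remaining 12 did not pass the detection filter, which asked for 3 or more of the 6 arrays to have a detection p below 0.05.

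The oligonucleotide in CpG-ODN samples, ODN1826, is a phosphorothioate DNA whose unmethylated CpG dinucleotides make it a ligand of Toll-like receptor 9, best known in mouse. It was given at 10 µM for 24 h to 3 samples. The other 3 samples were labelled saline, for a time not given in the sources used here, and one culture medium is described for the line. The labels do not state whether replicates were cultured separately, so every p-value reflects just the spread among these 6 samples, which may be technical. The comparison asked how the oligonucleotide changed transcript levels in these tumour cells.

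Heat shock proteins bind unfolded or partly folded proteins and let them fold, be transported or be degraded. HSP70 proteins work through cycles of ATP binding and hydrolysis, and J-domain proteins of the DNAJ families bring them substrates and start the hydrolysis. HSP90 proteins take over many clients from HSP70, HSP110 proteins exchange the nucleotide of HSP70, HSP60 with HSP10 folds proteins inside mitochondria, and small heat shock proteins hold clients without ATP. Under stress the transcription factor HSF1 binds heat shock elements, which are inverted repeats of nGAAn, before many of these genes. Many tumour cells keep high levels of these proteins without heat.

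Levels are given as background-corrected, quantile-normalized log2 intensities of the brightest probe of each gene, in the order of arrays 1, 2 and 3. A difference is the CpG-ODN mean minus the saline mean in log2 units, with the standard error (SE) of the limma fit over 3 arrays in each group. Of all 11040 genes, 0 (0.00%) passed limma's test at a Benjamini-Hochberg adjusted p under 0.05, and the smallest adjusted p was 1.00. Before adjustment, 395 genes (3.58%) had a p under 0.05, of which 214 were higher (1.94%) and 181 lower (1.64%) in CpG-ODN. The 3 arrays of one group lay wholly apart from the 3 of the other in 1032 genes (9.35%), 475 higher (4.30%) and 557 lower (5.05%) in CpG-ODN. These shares are the background for the chaperone genes, of which 0 of 63 passed the test.

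Arrays CpG-ODN 1 and CpG-ODN 2 stood apart from the rest and from each other. Over the chaperone genes the SD of the CpG-ODN 1 minus CpG-ODN 2 differences was 0.585 log2 units, against 0.252 to 0.281 for pairs of saline arrays. Detected probes numbered 17142 to 18426 on the CpG-ODN arrays and 17625 to 18790 on the saline arrays. Of 8 epithelial and ovarian carcinoma markers, 8 were measured and 7 were detected on all 6 arrays. MUC16 was detected on 2 CpG-ODN and 3 saline arrays. The leukocyte markers PTPRC and CD3E, the fibroblast markers LUM and COL3A1 and the endothelial marker CDH5 were detected on 0 arrays, whereas CD14, PECAM1 and VWF were detected on all 6. The summed intensity of the epithelial markers was 18403 to 26115 on the CpG-ODN arrays and 21302 to 23799 on the saline arrays. That of 5 leukocyte markers, of which 2 were measured, was 1305 to 1481 in CpG-ODN and 1452 to 1552 in saline, and that of 4 fibroblast markers, of which 1 was measured, was 837 to 911 in CpG-ODN and 914 to 942 in saline. These sums are of non-normalized intensities over all probes, also those not detected. Only 3 of 12 leukocyte and 1 of 8 fibroblast probes passed the detection filter, so much of these sums is background. The median intensity of all probes ran from 115.5 (CpG-ODN 1) to 120.8 (saline 3). The sum of the 3 endothelial markers was 775 to 859 in CpG-ODN and 1011 to 1042 in saline, and the part of these markers in the results was not tested. All samples are of 1 cell line, and in such bulk RNA fewer cells that express a marker and less of its RNA per cell cannot be told apart.

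HSF1 had the highest difference of the 63 chaperone genes. Its log2 levels were 6.74, 7.72 and 7.22 on the CpG-ODN arrays, against 6.67, 6.44 and 6.85 on the saline arrays. CpG-ODN 2 and 3 lay above every saline array and CpG-ODN 1 lay among them, so the groups overlapped. The difference was 0.57 ± 0.25 log2 units (SE), with a 95% interval of 0.02 to 1.13 and an adjusted limma p of 1.00. Across the 16 alternative settings that could be run for it, the HSF1 difference was lowest at 0.33 without array CpG-ODN 2, highest at 0.82 once array CpG-ODN 1 was left out, and passed the adjusted test in none. HSF1 protein is known to be controlled mainly by its assembly into trimers and by modification, and the arrays measured its transcript only. Of the other heat shock factors and their binding proteins, HSBP1 differed by -0.15 ± 0.16 and HSF2BP by -0.02 ± 0.30 log2 units.

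Promoter stretches of members that carry the HSF1 recognition letters are shown here as a description of these genes. Whether HSF1 acts on them in these cells was not tested. The RefSeq sequence table of build GRCh38.p14 held windows from 250 bases before to 50 bases after the annotated start for 65 of the 75 members. A 13-base motif of 3 triplets, GAA, TTC and GAA with any 2 bases between each, searched on both strands, was found in 7 of these 65 genes (10.8%) and in 166 of all 27305 genes with a window (0.608%). Its 8-base part GAANNTTC, which lies inside every such match, was found in 17 members (26.2%) and in 2241 of all genes (8.21%). A match is a description of the letters and not a measured binding site. Capitals mark the 13-base motif in the first 6 sequences and GAANNTTC in HSPA1A and HSPA1B, and each sequence runs 5′ to 3′ on the gene's own strand. The match of DNAJA1, the remaining gene of the 7, is not printed.
HSPA6: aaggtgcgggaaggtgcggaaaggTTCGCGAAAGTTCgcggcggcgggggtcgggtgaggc
HSPA8: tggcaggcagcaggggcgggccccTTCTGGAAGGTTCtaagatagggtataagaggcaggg
HSPD1: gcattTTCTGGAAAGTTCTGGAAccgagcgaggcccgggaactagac
HSP90AA1: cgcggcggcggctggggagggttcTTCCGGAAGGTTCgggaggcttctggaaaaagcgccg
HSP90AB1: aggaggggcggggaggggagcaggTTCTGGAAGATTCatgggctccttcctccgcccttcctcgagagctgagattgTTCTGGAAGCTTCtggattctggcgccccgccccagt
DNAJB6: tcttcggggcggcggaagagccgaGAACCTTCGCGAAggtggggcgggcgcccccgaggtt
HSPA1A: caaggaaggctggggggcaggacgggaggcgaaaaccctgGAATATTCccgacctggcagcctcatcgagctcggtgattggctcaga
HSPA1B: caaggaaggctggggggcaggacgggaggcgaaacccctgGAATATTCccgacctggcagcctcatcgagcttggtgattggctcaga
These stretches lie at chr1:161524442-161524502, plus strand (HSPA6), chr11:123062155-123062215, minus strand (HSPA8), chr2:197500044-197500090, minus strand (HSPD1) and chr14:102087096-102087156, minus strand (HSP90AA1). The others lie at chr6:44247754-44247867, plus strand (HSP90AB1), chr7:157336849-157336909, plus strand (DNAJB6), chr6:31815397-31815484, plus strand (HSPA1A) and chr6:31827593-31827680, plus strand (HSPA1B). HSP90AB1 showed 2 separate matches, and in HSPD1 2 matches overlapped. The window of HSPA8 also held 2 matches, of which 1 lies outside the printed stretch. The HSPA1A and HSPA1B stretches were identical at 86 of 88 bases. The windows of HSPD1 and HSPE1, which are divergent neighbours, shared 204 bases.

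Of the 7 genes with the 13-base motif, 6 had a lower mean in CpG-ODN and 3 of them (HSP90AA1, HSP90AB1 and HSPA6) had groups that did not overlap. Their median difference was -0.19 log2 units. Of all 11040 genes, 5647 had a lower mean and 557 (5.05%) lay wholly lower. Among the 39 tested genes with this motif that are not chaperone members, 20 had a lower mean, 3 lay wholly lower and 3 wholly higher, with a median of -0.0023. With the 8-base motif, 12 of 15 measured members had a lower mean and 6 lay wholly lower. Without it, 21 of 42 had a lower mean and 1 lay wholly lower. Wholly higher were 0 of the 15 and 1 of the 42. With arrays scaled to equal medians, 4 of the 15 (DNAJA4, DNAJB6, HSPA6 and HSPB6) and 11 of the 42 had a lower mean. Then 1 gene of each group, HSPA6 and DNAJC13, lay wholly lower. A higher mean was then found in 11 of the 15 (median 0.195) and 31 of the 42 (median 0.134). Of these, 1 with and 3 without the 8-base motif lay wholly higher. Among 602 non-member genes with GAANNTTC, 324 (53.8%) had a lower mean and 38 (6.31%) lay wholly lower. These are counts of genes that share promoters and arrays, none passed the test, and with arrays scaled to equal medians HSPA6 (-0.40) and DNAJB6 (-0.10) were the only ones of the 7 still lower in CpG-ODN.

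HSP90 transcripts were among those whose groups lay apart. HSP90AA1, the stress-inducible cytosolic HSP90, had log2 levels of 15.15, 14.75 and 15.14 in CpG-ODN, against 15.27, 15.28 and 15.23 in saline. Every CpG-ODN array was below every saline array, with CpG-ODN 2 lowest, and the difference was -0.25 ± 0.17 log2 units. Without CpG-ODN 2 it was -0.11, and the other 2 measured probes of HSP90AA1 differed by -0.15 and -0.06. HSP90AB1, the constitutive cytosolic form, read 13.91, 13.95 and 14.09 on the log2 scale in CpG-ODN, against 14.17, 14.23 and 14.12 in saline. Here too the groups did not overlap, with a difference of -0.19 ± 0.15 log2 units. When arrays were scaled to equal medians and not quantile normalized, this turned both signs, to 0.14 for HSP90AA1 and 0.17 for HSP90AB1. HSP90B1, the form of the endoplasmic reticulum (ER), had overlapping log2 levels of 14.09, 13.60 and 13.95 in CpG-ODN and 14.02, 13.88 and 13.74 in saline. Its difference was 0.00 ± 0.18 log2 units, with a 95% interval of -0.40 to 0.41.

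HSP70 genes gave 11 measured members of 12, of which 5 had a higher and 6 a lower mean in CpG-ODN, with a median difference of -0.02 log2 units. Under median scaling 9 had a higher mean and 2, HSPA6 and HSPA12A, a lower one, with a median of 0.21. The stress-inducible cytosolic pair HSPA1A and HSPA1B are neighbours on chromosome 6, with nearly identical transcripts, so the signal of one probe may include the other gene. HSPA1A read 13.13, 13.01 and 13.09 on the log2 scale in CpG-ODN, against 13.10, 13.16 and 13.14 in saline. These groups overlapped, and the difference was -0.05 ± 0.15 (95% interval -0.38 to 0.27). HSPA1B read 13.92, 13.94 and 13.92 in CpG-ODN, against 13.96, 14.14 and 14.15 in saline. The HSPA1B groups were apart by a small gap, with a difference of -0.16 ± 0.15 log2 units. With scaling to equal medians the differences were 0.24 for HSPA1A and 0.19 for HSPA1B, both with the opposite sign. HSPA6, a strictly stress-induced HSP70, was low, at 6.80, 6.94 and 7.29 in CpG-ODN and 7.34, 7.39 and 7.44 in saline on the log2 scale. Every CpG-ODN array was lower than every saline array, by -0.38 ± 0.17 in the mean (95% interval -0.77 to 0.01). The other HSPA6 probe was detected on 0 arrays. The HSPA6 difference was -0.40 with median scaling, -0.23 with the deposited normalized values, -0.23 without background correction, -0.14 with array weights and -0.096 with CpG-ODN 3 as the single CpG-ODN array.

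HSPA1L, the third gene of that chromosome 6 cluster and best known from testis, had log2 levels of 6.67, 6.96 and 7.01 in CpG-ODN, against 6.37, 6.29 and 6.76 in saline. CpG-ODN 1 was below saline 3 and the other CpG-ODN arrays were above all saline arrays. The difference was 0.41 ± 0.18 log2 units (95% interval -0.01 to 0.82), and it was 0.21 without background correction, as it was in the table of normalized values that the authors deposited. Under quantile normalization HSPA1L thus had the opposite sign to HSPA1A (-0.05), its neighbour, and to HSPA1B (-0.16), which lies beyond HSPA1A. HSPA2, another testis-associated HSP70, differed by 0.26 ± 0.17, and its other measured probe by -0.16. HSPA12A, a distant relative of the HSP70 family, read 10.41, 10.21 and 10.62 in CpG-ODN, against 10.92, 10.61 and 10.68 in saline. CpG-ODN 3 fell just inside the saline range, and the difference was -0.32 ± 0.17 log2 units, or -0.19 with median scaling. The other HSPA12A probes were detected on 0 arrays.

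Constitutive HSP70 genes of the cytosol, mitochondria and ER had overlapping groups under quantile normalization. HSPA8, which also uncoats clathrin vesicles, had log2 levels of 14.84, 14.03 and 14.77 in CpG-ODN, against 14.63, 14.37 and 14.63 in saline. CpG-ODN 1 and 3 were the highest of the 6 arrays and CpG-ODN 2 the lowest, which left a difference of 0.00 ± 0.23 (95% interval -0.51 to 0.52). HSPA9, the mitochondrial HSP70, differed by -0.08 ± 0.15, and HSPA14, the ribosome-associated form, by 0.02 ± 0.15. HSPA13, of the ER, differed by -0.02 ± 0.22. Under median scaling these differences were 0.33 for HSPA8, 0.21 for HSPA9, 0.14 for HSPA14 and 0.02 for HSPA13. HSPA5 (BiP), the main HSP70 of the ER, read 9.51, 9.91 and 9.83 in CpG-ODN, against 9.65, 9.68 and 9.26 in saline on the log2 scale. CpG-ODN 1 lay within the saline range and the other CpG-ODN arrays lay above it. The HSPA5 difference was 0.22 ± 0.19 log2 units (95% interval -0.19 to 0.64). It was 0.33 with scaling to equal medians, where the groups lay wholly apart with CpG-ODN higher, 0.14 without CpG-ODN 2, 0.35 without CpG-ODN 1 and 0.09 without saline 3.

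All 3 HSP110 genes, whose proteins release ADP from HSP70, had overlapping groups. HSPH1 differed by 0.00 ± 0.15 log2 units (95% interval -0.34 to 0.35), HSPA4 by -0.02 ± 0.27 and HSPA4L by -0.21 ± 0.22. The mitochondrial pair HSPD1 (HSP60) and HSPE1 (HSP10), which share a promoter region, also overlapped. HSPD1 read 14.65, 14.44 and 14.68 in CpG-ODN, against 14.79, 14.52 and 14.57 in saline on the log2 scale, a difference of -0.04 ± 0.16. Its other 2 measured probes differed by -0.28 and -0.21. HSPE1 read 14.15, 14.47 and 14.21 in CpG-ODN, against 14.12, 14.10 and 14.47 in saline, a difference of 0.05 ± 0.18, and its other probe differed by -0.06. With scaling to equal medians the differences were 0.32 for HSPD1, with the sign turned, and 0.42 for HSPE1, and among the HSP110 genes 0.21 for HSPH1, 0.16 for HSPA4 and -0.11 for HSPA4L.

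Among the small heat shock proteins 4 of 8 genes were measured. CRYAB (alpha B-crystallin), which keeps aggregating proteins in solution, had log2 levels of 8.18, 8.98 and 8.43 in CpG-ODN, against 8.12, 8.21 and 7.97 in saline. CpG-ODN 1 lay within the saline range, CpG-ODN 2 was far above it, and the difference was 0.43 ± 0.22 log2 units (95% interval -0.06 to 0.92). It was 0.20 without CpG-ODN 2. HSPB1 (HSP27) read 14.05, 14.12 and 14.14 in CpG-ODN, against 14.15, 14.28 and 14.18 in saline on the log2 scale. The HSPB1 groups did not overlap, with CpG-ODN 3 and saline 1 nearly level. Its difference was -0.10 ± 0.15 log2 units, or 0.26 with scaling to equal medians. HSPB8, which works with BAG3 in selective autophagy, differed by 0.14 ± 0.19. HSPB6 differed by -0.08 ± 0.24 and was detected on 1 CpG-ODN and 2 saline arrays.

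**Figure D1:**
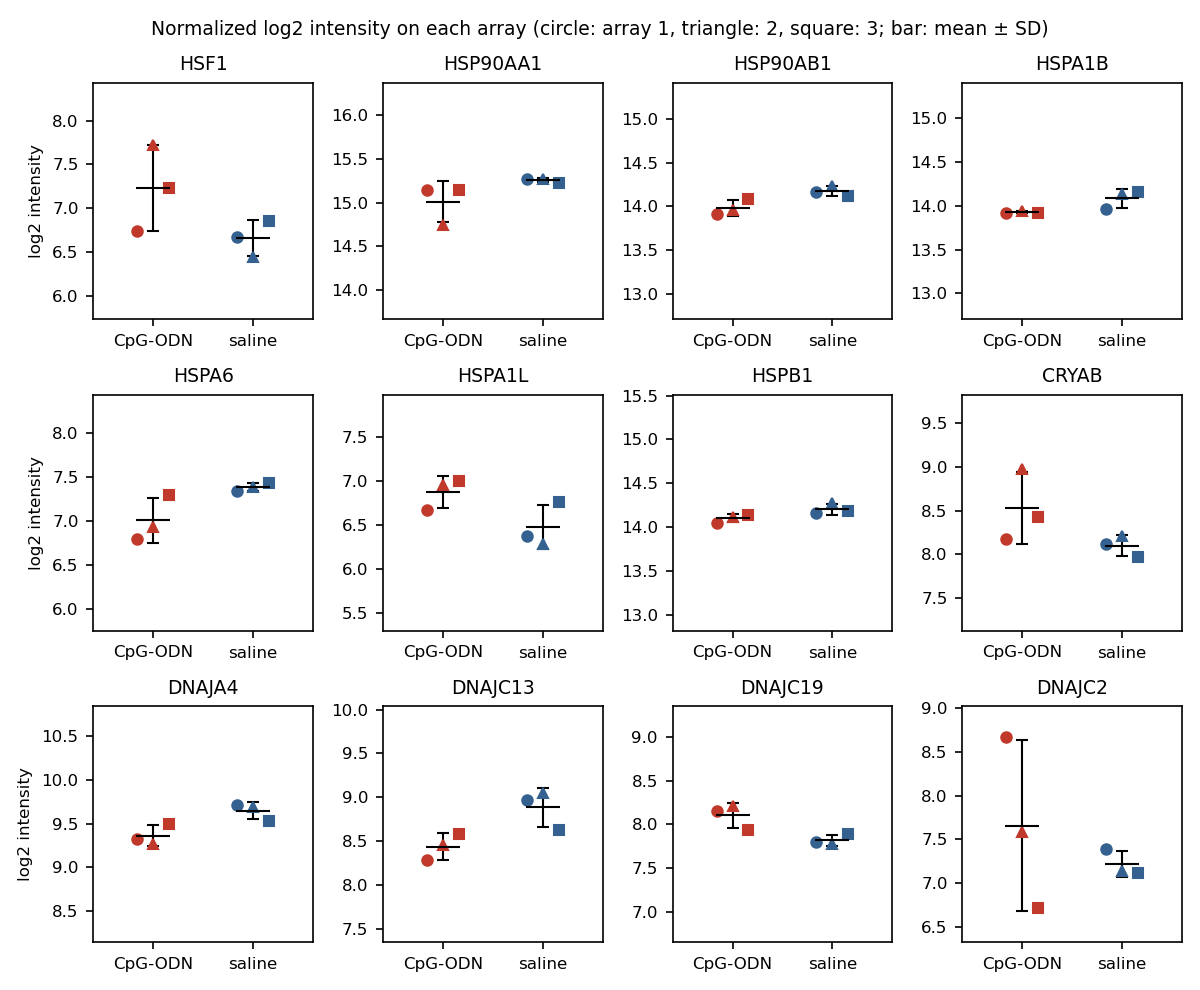
Normalized log2 intensity (vertical axis) of 12 chaperone genes on the CpG-ODN arrays (red, left) and the saline arrays (blue, right), with circles, triangles and squares for arrays 1, 2 and 3 and bars for the mean ± SD (n = 3 each). The groups lie apart for HSP90AA1, HSP90AB1, HSPA1B, HSPA6, HSPB1, DNAJA4, DNAJC13 and DNAJC19 and overlap for HSF1, HSPA1L, CRYAB and DNAJC2.

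J-domain co-chaperones made up 46 of the 75 genes and 39 of the 63 measured, with 19 higher and 20 lower means in CpG-ODN and a median difference of -0.02 log2 units. All 4 DNAJA genes, the class most like bacterial DnaJ, had a lower mean under quantile normalization, with a median of -0.11. DNAJA4, a cytosolic member, read 9.32, 9.26 and 9.50 in CpG-ODN, against 9.71, 9.69 and 9.53 in saline on the log2 scale. The DNAJA4 groups did not overlap, with a difference of -0.29 ± 0.15 log2 units (95% interval -0.63 to 0.06). Cytosolic DNAJA1 and DNAJA2 differed by -0.09 ± 0.16 and -0.11 ± 0.17, and mitochondrial DNAJA3 by -0.11 ± 0.16. Median scaling gave these 3 genes the opposite sign, at 0.20, 0.15 and 0.17, and DNAJA4 stood at -0.19. With CpG-ODN 3 as the single CpG-ODN array DNAJA4 differed by -0.15.

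DNAJB genes, which share the J domain but lack the zinc finger of DNAJA, gave 10 measured members of 13, with 6 higher and 4 lower means. DNAJB1 (HSP40), the heat-induced partner of HSPA1A, read 10.34, 10.71 and 10.42 in CpG-ODN, against 10.32, 10.67 and 10.64 in saline on the log2 scale. These levels overlapped almost wholly, and the difference was -0.05 ± 0.18 (95% interval -0.45 to 0.34). DNAJB6, which holds back polyglutamine aggregates, read 10.54, 10.88 and 11.12 in CpG-ODN, against 11.12, 11.02 and 11.23 in saline. CpG-ODN 1 and 2 were below all saline arrays and CpG-ODN 3 was within their range. The DNAJB6 difference was -0.28 ± 0.18 log2 units, and its other probe differed by 0.04. DNAJB2, which carries ubiquitin-interacting motifs and is best known from neurons, differed by 0.17 ± 0.17 and DNAJB5 by 0.21 ± 0.21 log2 units. The ER-membrane members DNAJB12 and DNAJB14 differed by 0.20 ± 0.23 and -0.16 ± 0.28, and their probes disagreed in sign. DNAJB12's other 3 probes differed by 0.00, -0.05 and 0.34 log2 units, and those of DNAJB14 by 0.16 and 0.18.

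DNAJC genes, in which the J domain sits in otherwise unlike proteins, gave 25 measured members of 29, with 13 higher and 12 lower means. DNAJC13 (RME-8), which acts with HSPA8 on endosomes, had the lowest difference of all chaperone genes. Its log2 levels were 8.28, 8.45 and 8.58 in CpG-ODN, against 8.97, 9.05 and 8.63 in saline. Every CpG-ODN array was below every saline array, though CpG-ODN 3 and saline 3 were close. The difference was -0.45 ± 0.18 log2 units (95% interval -0.84 to -0.05, adjusted p = 1.00), and it ranged from -0.57 to -0.30 over the alternatives run. DNAJC19, which drives the HSP70 motor of mitochondrial protein import, was the single chaperone gene with groups wholly higher in CpG-ODN. It read 8.16, 8.21 and 7.93 in CpG-ODN, against 7.79, 7.77 and 7.89 in saline, a difference of 0.28 ± 0.16 log2 units. With scaling to equal medians its difference was 0.30, but the groups overlapped, and with CpG-ODN 3 as the single CpG-ODN array it was 0.12.

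DNAJC14, an ER-membrane protein, read 8.63, 8.92 and 8.76 in CpG-ODN, against 8.36, 8.66 and 8.55 in saline on the log2 scale. CpG-ODN 1 fell just inside the saline range, and the difference was 0.24 ± 0.16. DNAJC5, the cysteine string protein of secretory vesicles, read 7.95, 8.31 and 8.08 in CpG-ODN, against 8.19, 8.37 and 8.55 in saline, a difference of -0.26 ± 0.17 log2 units with overlapping groups. DNAJC28 differed by -0.32 ± 0.18, or -0.0048 with scaling to equal medians, and its 3 other probes were detected on 0 arrays. DNAJC2, which binds HSPA14 at the ribosome, read 8.67, 7.59 and 6.72 in CpG-ODN, against 7.39, 7.14 and 7.12 in saline on the log2 scale. Its CpG-ODN arrays spread from above to below all saline arrays (SD 0.98 in CpG-ODN and 0.15 in saline), and the difference was 0.44 ± 0.40 (95% interval -0.46 to 1.34). It was -0.066 without CpG-ODN 1 and 0.91 without CpG-ODN 3. The DNAJC12 probes disagreed: the brightest differed by -0.18 and the other 3 by 0.41, 0.19 and 0.19 log2 units. DNAJC12 was named after its values were seen.

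Over all 63 measured chaperone genes, 30 had a higher and 33 a lower mean in CpG-ODN, with a median difference of -0.020 log2 units, against -0.0053 over all genes tested. At an unadjusted limma p under 0.05 there were 2 (3.17%), HSF1 higher and DNAJC13 lower, close to the 3.58% of all genes. The arrays of the groups lay wholly apart in 8 (12.7%), against 9.35% of all genes. Of these 8, 7 were lower in CpG-ODN under quantile normalization (HSP90AA1, HSP90AB1, HSPA1B, HSPA6, HSPB1, DNAJA4 and DNAJC13) and 1, DNAJC19, was higher. The 95% interval of the difference lay inside a 2-fold change for 60 of 63 genes (95.2%), as for 95.4% of all genes, with HSF1, DNAJC2 and DNAJC30 as the exceptions. It lay inside a 1.5-fold change for 31 (49.2%), against 51.7% of all genes. Of the 13 chaperone genes with several measured probes, 8 had a probe of the opposite sign.

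**Figure D2:**
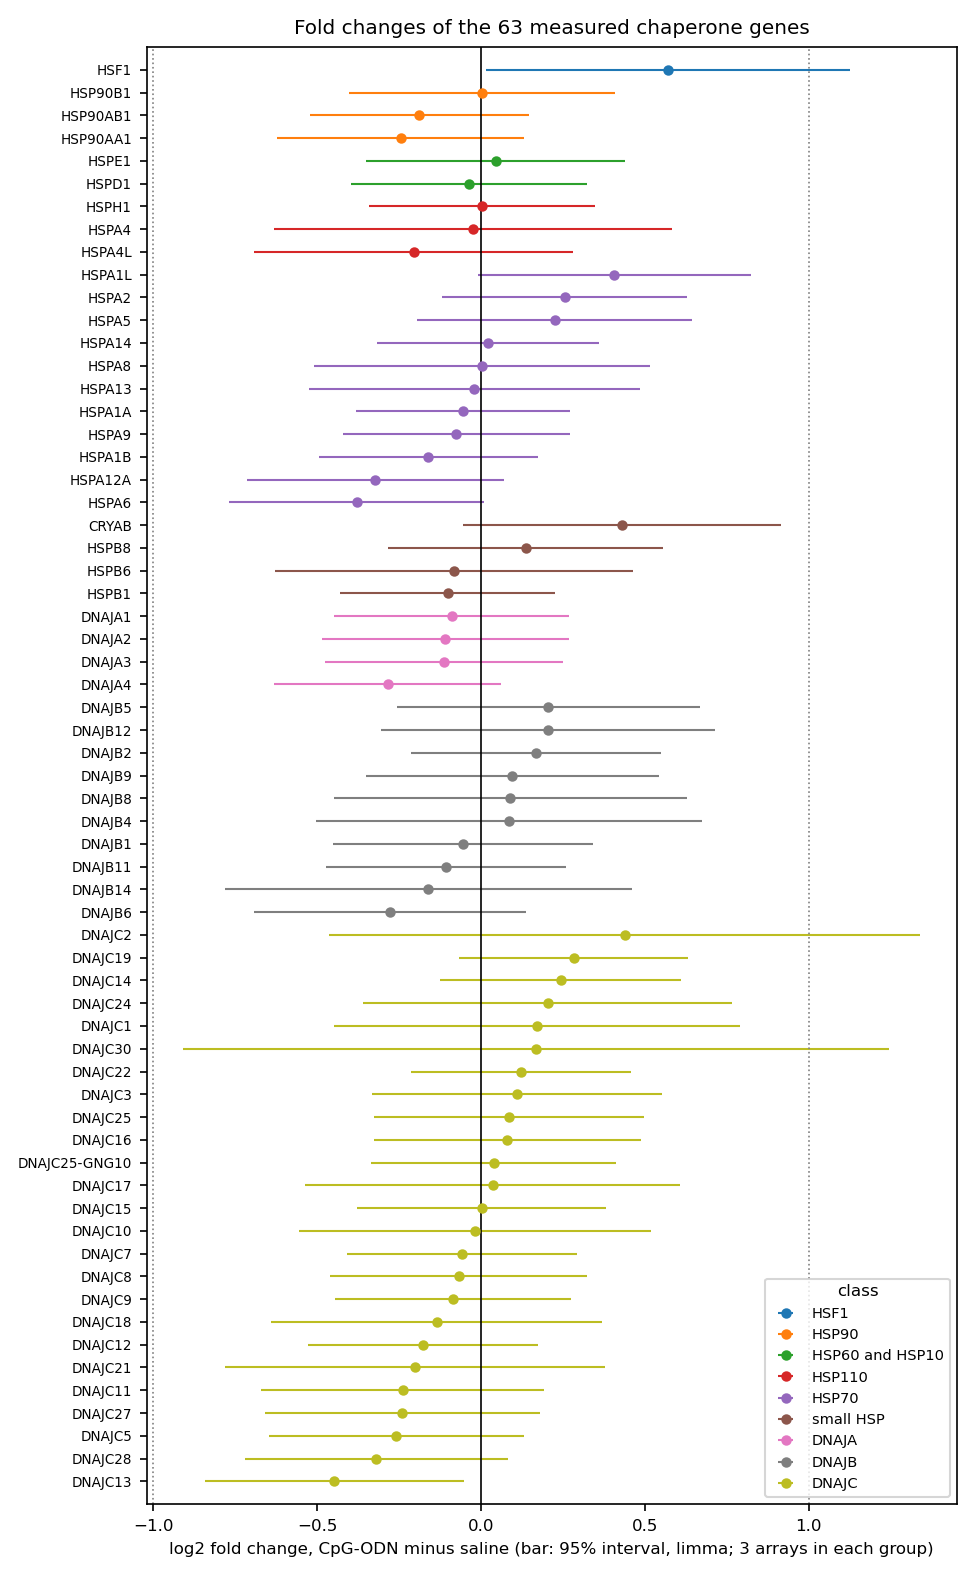
Log2 difference, CpG-ODN minus saline, of the 63 measured chaperone genes (points) with its 95% interval from limma (bars, 3 arrays in each group), coloured by class and ordered by size within it. Differences run from -0.45 (DNAJC13) to 0.57 (HSF1), most bars cross 0, and dotted lines mark a 2-fold change.

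Grouped by what the proteins do, 17 genes were listed as heat-inducible, and all were measured. The list was HSPA1A, HSPA1B, HSPA1L, HSPA6, HSPA8, HSPB1, CRYAB, HSPD1, HSPE1, HSPH1, HSPA4, HSPA4L, HSP90AA1, HSP90AB1, DNAJA1, DNAJB1 and DNAJB4. It thus includes HSPA8 and HSP90AB1, described above as constitutive, and HSPA1L, best known from testis. Of the 17, 11 had a lower and 6 a higher mean in CpG-ODN, with a median of -0.05 log2 units. In 5 of them (HSP90AA1, HSP90AB1, HSPA1B, HSPA6 and HSPB1, 29.4%) the groups lay wholly apart with CpG-ODN lower, and in 0 with CpG-ODN higher. Of all 11040 genes, 5647 had a lower mean, 5.05% lay wholly lower and 4.30% wholly higher. With arrays scaled to equal medians, 1 of the 17 lay wholly lower and 1 wholly higher. The 95% interval of each of the 17 lay inside a 2-fold change. Chaperones of the ER lumen, many of which stress in that compartment raises, had 6 higher and 3 lower means among 9 measured, with a median of 0.08. DNAJB9, one of them and a strong target of ER stress signalling, differed by 0.10 ± 0.20, DNAJB11 by -0.11 ± 0.16 and DNAJC3, which brings substrates to HSPA5, by 0.11 ± 0.20 log2 units. Mitochondrial members had 4 higher and 5 lower means among 9 measured of 10, with a median of -0.04. These ER and mitochondrial counts hold under quantile normalization. With scaling to equal medians the 3 lower ER genes, DNAJB11, HSPA13 and DNAJC10, turned to 0.13, 0.02 and 0.10. Of the 5 lower mitochondrial genes, HSPA9, HSPD1 and DNAJA3 turned to 0.21, 0.32 and 0.17. DNAJC11 (-0.23) and DNAJC28 (-0.0048) stayed lower. DNAJC10 and DNAJC11 were named after their values were seen.

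**Figure D3:**
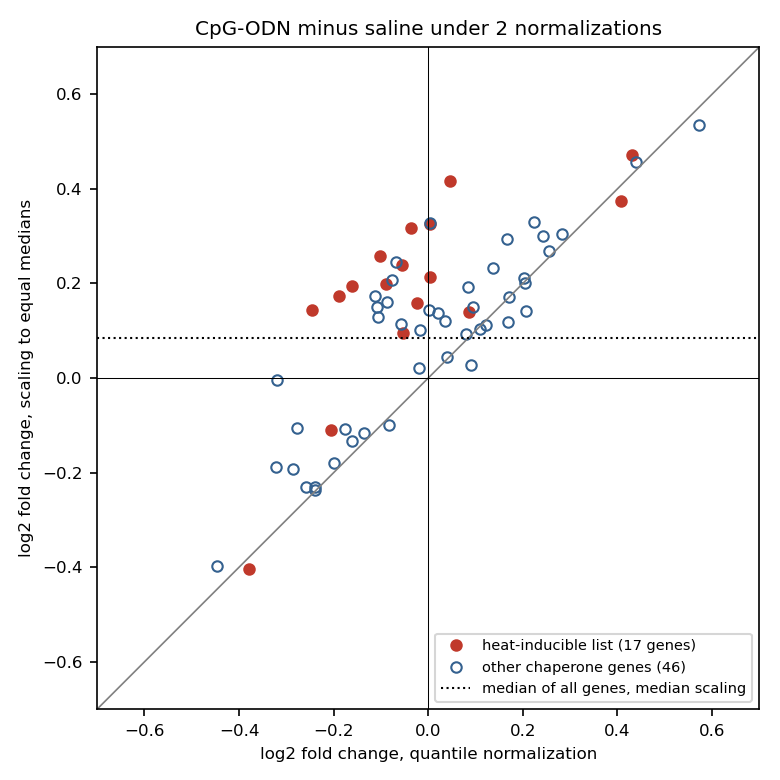
Log2 difference, CpG-ODN minus saline, of each measured chaperone gene with quantile normalization (horizontal axis) and with scaling of the arrays to equal medians (vertical axis), with the heat-inducible genes filled. Most filled points lie above the diagonal, and 2 of the 17 remain below 0 on the vertical axis.

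The direction of the heat-inducible genes depended on how the arrays were normalized. With scaling to equal medians the median difference of all genes was 0.085 log2 units, that of the chaperone genes was 0.145 (48 higher and 15 lower means) and that of the heat-inducible genes was 0.199, with 2 of 17 lower (HSPA6 and HSPA4L). HSPA6 at -0.40 and DNAJC13 at -0.40 were then the 2 chaperone genes still wholly lower in CpG-ODN, and 6 were wholly higher, namely HSF1, HSPA5, CRYAB, HSPB8, DNAJC14 and DNAJC8, the last named after its values were seen. Among J-domain genes, DNAJB then had 8 higher and 2 lower means and DNAJC 17 higher and 8 lower. Over all genes, 1.73% were then wholly lower and 5.32% wholly higher. HSP90AA1, HSP90AB1, HSPA1B and HSPB1 had differences of 0.145, 0.173, 0.195 and 0.258 log2 units. Among the chaperone genes, the change of scaling raised bright ones such as these more than dim ones. HSPE1 went from 0.05 to 0.42, whereas the dim HSF1 went from 0.57 to 0.54. The median of all genes is therefore no like comparison for bright genes, and all genes of like brightness were not compared. With the deposited normalized values, without background correction and with an offset of 50, the counts were 7 wholly lower and 1 wholly higher, as with the main normalization. Background correction and the offset keep the order of probes on an array. Under quantile normalization the settings without background correction and with an offset of 50 therefore could not change the counts. Their agreement is no separate evidence on the direction. For the deposited values, whose method was not given, this cannot be said. Over all genes they had 476 wholly higher, against 475 in the main normalization. Their median over the chaperone genes, -0.0149, was that found without background correction, so they are not taken as separate evidence either. Which scaling is nearer to the RNA content of the cells was not tested.

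Array by array, the chaperone genes did not move one way. Set against the saline mean, the median of the 63 genes was 0.046, -0.148 and -0.023 log2 units on CpG-ODN 1, 2 and 3, against 0.028, -0.0003 and -0.044 on saline 1, 2 and 3. On CpG-ODN 1 35 genes were above the saline mean, on CpG-ODN 2 21 and on CpG-ODN 3 29. The mean size of the deviation was 0.282, 0.335 and 0.176 on the CpG-ODN arrays, against 0.120, 0.111 and 0.124 on the saline arrays. Over all genes it was 0.303, 0.313 and 0.183 on the CpG-ODN arrays, against 0.133, 0.117 and 0.136 on the saline arrays. The chaperone genes thus spread about as widely as all genes did. The SD in CpG-ODN exceeded that in saline in 50 of 63 chaperone genes (79.4%), against 74.9% of all genes.

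CpG-ODN 1 and CpG-ODN 2 lay on opposite sides of the saline mean in 34 chaperone genes (54.0%), against 55.4% of all genes. They differed by over 1 log2 unit in 5 (7.94%), against 8.47% of all genes. CpG-ODN 1 minus CpG-ODN 2 was 1.23 for DNAJB14, 1.08 for DNAJC2, 1.04 for DNAJB4, -1.09 for DNAJC17 and -2.20 for DNAJC30, all of them J-domain genes. DNAJB4, DNAJC17 and DNAJC30 were named after their values were seen. DNAJC30, a mitochondrial member, read 6.33, 8.53 and 7.02 in CpG-ODN, against 6.70, 7.57 and 7.10 in saline on the log2 scale. Its saline arrays also spread, and the difference was 0.17 ± 0.48. With CpG-ODN 3 as the single CpG-ODN array, the median difference of the chaperone genes was -0.023. The 4 with an unadjusted limma p under 0.05 in that fit rest on the saline spread alone, since the lone array is assumed to vary like the saline arrays.

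**Figure D4:**
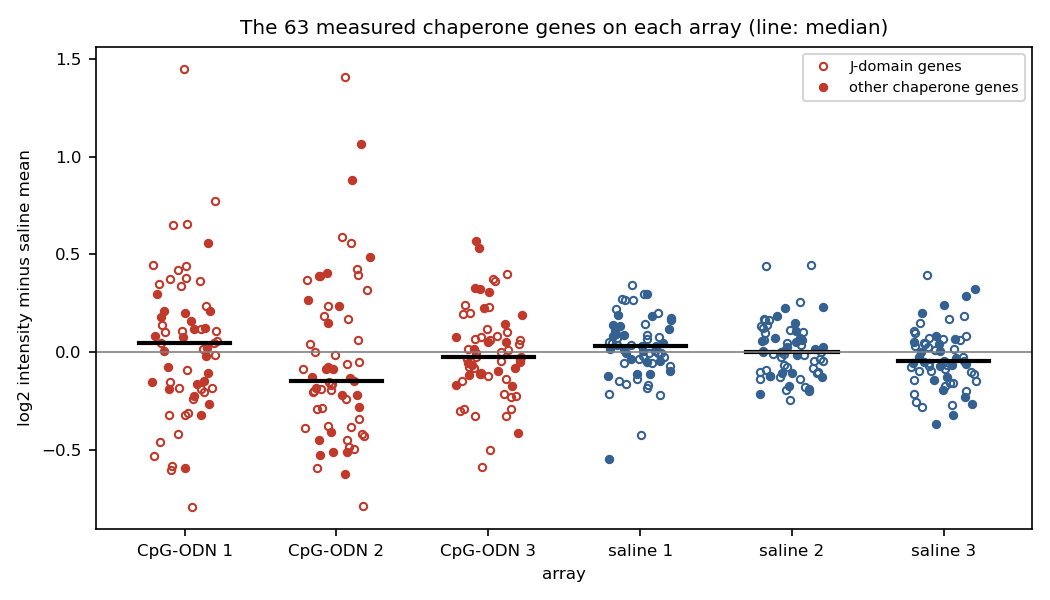
Log2 intensity minus the saline mean (vertical axis) of the 63 measured chaperone genes on each array, with J-domain genes open, the others filled, CpG-ODN in red, saline in blue and a line at the median. Points of CpG-ODN 1 and 2 scatter more widely than those of CpG-ODN 3 and the saline arrays, and the median of CpG-ODN 2 is the lowest at -0.148.

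Co-chaperones outside the members were compared on the same arrays. Of 30 listed partners of HSP70 and HSP90, 26 were measured. In CpG-ODN 7 of these had a higher mean and 19 a lower one, with a median difference of -0.06 log2 units and 0 at an unadjusted limma p under 0.05. Of all 11040 genes, 5647 had a lower mean. Values of the genes outside the members are given under quantile normalization only, so whether their directions hold with median scaling is not shown. BAG1, a nucleotide exchange factor of HSP70, read 6.01, 5.36 and 5.39 in CpG-ODN, against 5.96, 5.98 and 5.97 in saline on the log2 scale. CpG-ODN 1 was above the saline arrays and the other 2 were below them, so the difference was -0.38 ± 0.20. ST13 (HIP), which steadies HSP70 on its client, differed by -0.29 ± 0.19. Of the chaperonin TRiC and prefoldin, which fold actin and tubulin, 13 of 14 listed subunits were measured, and 8 means were higher and 5 lower in CpG-ODN. CCT3, a TRiC subunit, read 12.32, 12.43 and 12.60 in CpG-ODN, against 12.87, 12.76 and 12.88 in saline on the log2 scale. These groups did not overlap, and the difference was -0.39 ± 0.15. PFDN5, a prefoldin subunit, read 13.58, 13.68 and 13.53 in CpG-ODN, against 13.40, 13.42 and 13.29 in saline on the log2 scale. The PFDN5 groups did not overlap either, with CpG-ODN higher by 0.22 ± 0.15.

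Detection limited what could be said of 12 members. DNAJC4 was detected on 1 CpG-ODN and 1 saline array, and DNAJC5G, HSPB2 and HSPB3 on 0 CpG-ODN and 1 saline array. DNAJB3, DNAJB7, DNAJB13, DNAJC5B, DNAJC6, HSPA12B, HSPB7 and HSPB9 were detected on 0 arrays. HSPB2 is the neighbour of the measured CRYAB on chromosome 11. Of the 63 measured genes 59 were detected on all 6 arrays, and DNAJB8, DNAJC16, DNAJC18 and HSPB6 on 3. DNAJC25-GNG10, which met the rule by its first letters, is a readthrough of DNAJC25 into its neighbour, and its probe may read GNG10.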

How the data were processed

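RNA of 3 CpG-ODN and 3 saline samples was measured on Illumina bead arrays, grouped by title and treatment label. Intensities on a linear scale, not normalized, and a detection p-value for each were deposited per probe and array, per the file headers. BeadStudio is named in the submitters' processing notes, with no version given there. The deposited normalized intensities, whose method was not given, served as an alternative.

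Intensities were background-corrected and quantile normalized to log2 with neqc of limma 3.58.1 in R 4.3.3 (offset 16, with negative controls inferred through detection p-values). The offset shrinks the fold changes of dim probes. A probe was kept if its detection p was below 0.05 on 3 or more of 6 arrays (17950 probes). Of all probes, 28098 had 1 gene symbol and 13 had several in the platform annotation, and the rest were left unnamed. Gene numbers matched RefSeq names for 28059, with 0 symbols changed. The brightest probe stood for a gene. Groups were compared over all 11040 genes with lmFit and eBayes, with Benjamini-Hochberg adjustment, and intervals are 95% intervals of the fit. The script was tested on simulated data. The number of arrays limits the precision.

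The members and lists were chosen with earlier results of these data known. Named genes were all measured HSP genes, CRYAB and HSF1, the 3 members of DNAJA, DNAJB and DNAJC with the smallest unadjusted p either way, any other member under 0.05, DNAJA1, DNAJB1, DNAJB6, DNAJB9 and DNAJC3, and 2 genes of each outside list. Alternatives were the deposited values, no background correction, median scaling, an offset of 50, no or a stricter filter, other treatment of several probes, array weights, a replicate block and leaving out arrays. The arrays' chips are not given, so no chip block was fitted. Promoter sequences are from RefSeq, build GRCh38.p14.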

Additional observations from a re-analysis of the deposited data

How the results depend on the processing

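Chaperone genes that passed the adjusted test numbered 0 under each of the 17 alternatives run. Over all genes the count was 0 as well, except with array weights, which called 76. Those weights were 0.244, 0.335 and 5.25 for CpG-ODN 1, 2 and 3 and 1.13, 2.02 and 1.02 for saline 1, 2 and 3, so that fit rested mainly on CpG-ODN 3. Chaperone genes at an unadjusted limma p under 0.05 (2 in the report) numbered 1 with the deposited normalized values, 1 without background correction, 0 with median scaling, 4 without a filter, 12 with array weights and 4 without CpG-ODN 1 and 2. That last fit has a single CpG-ODN array, assumed to vary like the saline arrays. Leaving out 1 array gave 0 to 6: 6 without CpG-ODN 1, 1 without CpG-ODN 2, 5 without CpG-ODN 3, 0 without saline 1, 0 without saline 2 and 3 without saline 3. All genes at that threshold (395 in the report) numbered 150 with median scaling, 714 without a filter, 643 with every probe taken separately, 1891 with array weights and 603 without CpG-ODN 1 and 2, and 214 to 1037 with 1 array left out (1037 without CpG-ODN 1, 244 without saline 1, 249 without saline 2 and 214 without saline 3). The cause of these moves was not tested. The median difference of the chaperone genes was 0.145 with median scaling and -0.072 to 0.0068 with 1 array left out. With the replicate block 4 chaperone genes and 536 of all genes had an unadjusted p under 0.05 and 0 were called. Same-numbered arrays correlated at 0.370, 0.0457 and 0.110 in their deviations and CpG-ODN 2 correlated best with saline 3 (0.285), so the numbers were not taken to pair the samples. Of 716 alternative values of the 43 named genes, 651 kept their sign, and 17 genes kept it in all settings run, among them HSF1, HSPA6, HSPA1L, CRYAB and DNAJC13. The replicate block and the other filters changed the SE but not the difference of a named gene. For genes with 1 measured probe, the other treatments of probes did the same. These signs were thus kept by construction. Of the named genes, HSF1, HSPA1L, DNAJB5, DNAJB12, DNAJC3 and HSPB6 did not pass the stricter filter.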
